A study of Mus musculus with 6 samples.

Results

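The histone deacetylases of class II and class IV are 7 of the 11 zinc-dependent deacetylase genes of the mouse, and they were taken by name from a table of 55536 genes: Hdac4, Hdac5, Hdac7 and Hdac9 (class IIa), Hdac6 and Hdac10 (class IIb) and Hdac11 (class IV). Their transcripts were measured in CD4+ T cells that lacked the class I enzyme HDAC1 (2D2-HDAC1-cKO, genotype 2D2-Hdac1fl/fl-Cd4-Cre+, here HDAC1-cKO) and in 2D2-WT cells (here WT), with 3 libraries per genotype. In HDAC1-cKO cells the floxed Hdac1 gene is cut by Cre recombinase driven by the Cd4 promoter, which is active from a thymocyte stage onward, also in cells that later become CD8 T cells. Both genotypes carry 2D2, a transgenic T cell receptor that recognises a peptide of myelin oligodendrocyte glycoprotein (MOG), on the C57BL/6 strain. Naive CD45.2+ cells were transferred intravenously into CD45.1+ hosts, and 18 hours later the hosts were immunised in the footpad with the peptide in Freund's adjuvant (CFA). The draining popliteal lymph nodes were taken 4 days after that, cells of 2 mice were pooled for each replicate, and 500 2D2+ CD4+ CD45.2+ cells were sorted per library for Smart-seq2, a method that amplifies full-length cDNA from few cells. The labels used here give no age for the mice.

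Class IIa enzymes bind MEF2 transcription factors and bring the NCoR/SMRT corepressor with HDAC3 to their targets, and have little deacetylase activity of their own. Kinases such as protein kinase D phosphorylate them after antigen receptor signalling and 14-3-3 proteins then hold them in the cytoplasm, a cycle best known in thymocytes for HDAC7. The class IIb enzyme HDAC6 acts in the cytoplasm on alpha-tubulin and HSP90 and binds ubiquitin, its relative HDAC10 deacetylates an acetylated polyamine, and the class IV enzyme HDAC11 removes long fatty acyl groups from proteins such as SHMT2.

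None of the 5 members with enough reads to be tested differed between genotypes by the test used. Hdac10, Hdac6, Hdac7, Hdac4 and Hdac5 were measured in every library of both genotypes, whereas Hdac9 had 1 count and Hdac11 had 14 counts among the 235750781 counts of all 6 libraries. Hdac6 had the lowest p of the members, with a fitted level 1.32 times that of WT, and Hdac5 had the largest fitted fold, 1.69, with the widest interval.

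The regions before the starts of 4 of the genes are shown to let the CpG-poor starts of Hdac9, which was at or near 0, be read beside those of 3 members with reads. They were chosen after the counts below were known, and Hdac7 and Hdac11, given there in numbers, do not follow the same contrast. Each stretch is the 150 bases before a RefSeq start (GRCm38.p6), written 5′ to 3′ on the minus strand, on which all 4 genes lie, and no exon of the GENCODE M21 annotation overlaps it. Capitals mark the GC box GGGCGG, the CCAAT box, the TATA box TATAAA and a MEF2 pattern (the stretch of capitals rich in T in Hdac5 and in the second Hdac9 region, in which 1 position may be any base), each searched on both strands and without overlaps between them in these stretches. The last of these was chosen after the sequences had been read.
Hdac4, chr1:92180342-92180491: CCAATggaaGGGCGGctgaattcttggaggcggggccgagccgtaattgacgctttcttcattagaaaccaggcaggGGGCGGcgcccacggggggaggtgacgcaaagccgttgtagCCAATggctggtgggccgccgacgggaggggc
Hdac5, chr11:102230173-102230322: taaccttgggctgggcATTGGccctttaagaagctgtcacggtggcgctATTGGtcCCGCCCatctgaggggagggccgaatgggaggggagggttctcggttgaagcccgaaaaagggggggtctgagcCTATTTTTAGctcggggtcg
Hdac6, chrX:7947890-7948039: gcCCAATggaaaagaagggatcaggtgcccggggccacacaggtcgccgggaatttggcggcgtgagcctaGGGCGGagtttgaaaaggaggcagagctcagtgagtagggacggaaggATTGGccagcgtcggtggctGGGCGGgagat
Hdac9, first start, chr12:34917096-34917245: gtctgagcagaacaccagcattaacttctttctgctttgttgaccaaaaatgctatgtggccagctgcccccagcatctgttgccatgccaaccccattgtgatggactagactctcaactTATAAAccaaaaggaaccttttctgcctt
Hdac9, second start, chr12:34528890-34529039: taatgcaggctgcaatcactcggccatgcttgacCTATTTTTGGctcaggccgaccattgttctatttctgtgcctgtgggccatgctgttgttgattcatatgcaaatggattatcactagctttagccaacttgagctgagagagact

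CpG, the dinucleotide at which mammalian promoters can be methylated, was counted in windows of 300 bases, from 250 before to 50 after each start. The 2 windows of Hdac9 held 0 and 3 CpG. Those of Hdac4, Hdac5 and Hdac6 held 32, 18 and 20, and the median of all 32851 RefSeq windows was 7. Hdac11, which had almost no reads, held 22, so the 2 members with almost no reads were not alike in this. Hdac7 has 4 starts, with 6, 35, 31 and 5 CpG, and Hdac10 has no window in the table. Of all genes whose richest window held 0 to 4 CpG, 10.5% had enough reads to be tested in these cells, against 76.6% of genes with 20 or more.

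Promoter motifs did not separate the members with reads from those without. The windows of Hdac4 and Hdac6 held 5 GC boxes each and that of Hdac5 held 1, where 35.7% of all windows held at least 1. Each of these 3 windows held 2 CCAAT boxes, a pattern present in 37.4% of all windows. Hdac7, which had reads in every library, held 0 CCAAT boxes in its 4 windows and 1 GC box in 1 of them. Hdac11, which had almost no reads, held 1 GC box and 1 CCAAT box. The first window of Hdac9 held a TATA box, as 13.6% of all windows did. The MEF2 pattern was chosen after these sequences had been read, so its share of all windows cannot show its matches here to be unusual. The pattern occurred in 84 of the 32851 windows (0.256%). Among them was that of Hdac5, where its first base lies at -20 from the start. Another was that of the second start of Hdac9, where it lies at -116. The matches of Hdac5 and Hdac9 differ at the position that may be any base. A match describes the letters and was not tested as a binding site.

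The libraries held 19956153 to 55900237 counts, and each HDAC1-cKO library held fewer than any WT library. Hdac1 itself was at 17.2, 14.7 and 15.4 CPM (counts scaled to a common library size by the TMM method) in the HDAC1-cKO libraries and at 234, 236 and 244 in the WT libraries, so that every library matched its label; a pseudogene, Gm10093, shares 31.7% of the stretches of 50 bases in Hdac1 exons, so its residual level is uncertain. Over 15519 genes tested, 306 (1.97%) were called, 152 higher and 154 lower in HDAC1-cKO, by edgeR's quasi-likelihood test at a Benjamini-Hochberg adjusted p under 0.05. HDAC1-cKO replicate 2 stood apart: over genes, its deviation from the mean correlated with GC content at r = 0.605 (Pearson, across 8330 genes, which are not independent replicates), against -0.295 to -0.077 in the other libraries. The 12 T cell markers summed to 25500 to 34800 CPM in HDAC1-cKO and 29800 to 35700 in WT, with Cd4 and the receptor genes among them, and 2 of them, Cd3e and Cd2, were called lower. B cell markers summed to 17.6 to 72.6 CPM. Myeloid and dendritic cell markers summed to 10.6 to 16.0 CPM in HDAC1-cKO and 20.6 to 38.5 in WT, with 6 of 15 at 0 in all libraries. Of the 6 that were tested, 5 had a log2 fold change below 0 and 0 were called. Cd68 went the other way without overlap, at 2.48, 6.21 and 5.24 CPM in HDAC1-cKO and 2.01, 2.2 and 2.11 in WT. CD8 T cell and NK cell markers, with 2 of 6 at 0, summed to 66.3 to 74.9 CPM in HDAC1-cKO and 48.4 to 62.7 in WT without overlap, nearly all of it Cd8b1. Stromal and endothelial markers, with 5 of 10 at 0, summed to 58.2 to 81.5 and 64.2 to 99.4 CPM. Nearly all of this was Pecam1, at 57.7 to 80.3 CPM in HDAC1-cKO and 63.3 to 98.4 in WT. The part of these cells in the members' values was not tested.

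Of the 7 members, 5 had enough counts to be tested, and edgeR called 0 of them higher and 0 lower, beside 1.97% of all genes. At an unadjusted p under 0.05 there was 1, Hdac6, where 17.0% of all genes tested were, and DESeq2 and limma-voom with sample weights also called 0. The fitted log2 fold change was above 0 for 4 of the 5, among them Hdac10 at 0.005, and for 7717 of the 15519 genes tested. Its median over the 5 was 0.149, beside -0.002 for all genes tested. The HDAC1-cKO libraries were all above the WT libraries for 2 of the 5, Hdac5 and Hdac6, and all below for no member. Of the 15519 genes tested, 1975 (12.7%) lay all above and a further 1835 all below. In bulk RNA, fewer cells that express a gene and less of its RNA per cell cannot be told apart. The p-values measure the spread between these libraries of pooled mice.

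**Figure D1:**
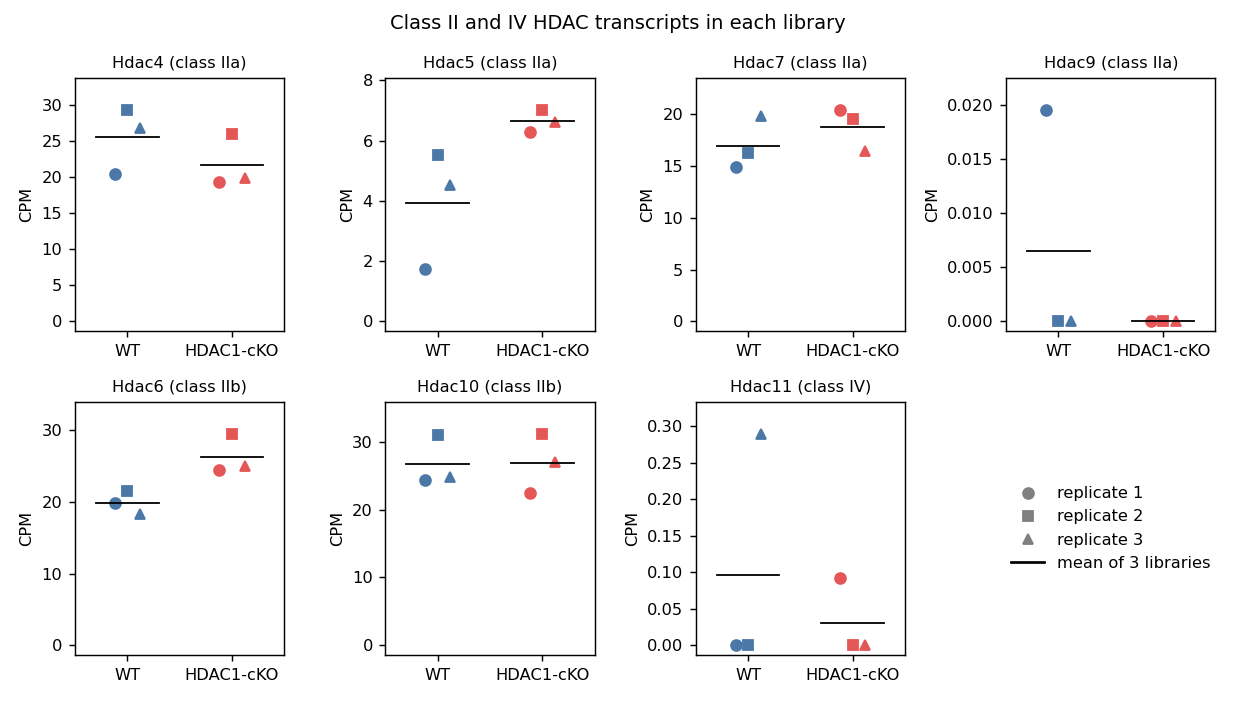
TMM-scaled CPM (linear axes from 0, a scale for each gene) of the 7 genes in each library, WT in blue and HDAC1-cKO in red, with symbols for the replicate number and a line at the mean of 3 libraries. The genotypes overlap except for Hdac5 and Hdac6, and Hdac9 and Hdac11 lie near 0.

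Among the class IIa genes, Hdac4 (ENSMUSG00000026313, GRCm38 chr1:91928779-92195699, minus strand), a corepressor first studied in cartilage and muscle, was at 19.4, 25.9 and 19.9 CPM in HDAC1-cKO and at 20.4, 29.3 and 26.8 in WT. These ranges overlapped, with the highest value in WT replicate 2. The log2 fold change was -0.23 ± 0.19 (SE, n = 3 libraries per genotype), a fold of 0.853 with a 95% interval from 0.626 to 1.16 (edgeR adjusted p = 0.619). An antisense lincRNA, Gm26720, covers 22.4% of the exon bases of Hdac4, and the library kit does not mark strand, so reads of the pair cannot be told apart there.

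Hdac5 (ENSMUSG00000008855, chr11:102194432-102230166, minus strand), the class IIa member best known from heart and bone, was at 6.29, 7.01 and 6.62 CPM in HDAC1-cKO and at 1.74, 5.51 and 4.53 in WT. The HDAC1-cKO values lay within 1 CPM of each other and above all WT values, and WT replicate 1 was far below the other libraries. The log2 fold change was 0.76 ± 0.40 (SE, n = 3 libraries per genotype), with an interval for the fold from 0.899 to 3.18, and did not pass the test (edgeR adjusted p = 0.391). Without WT replicate 1 the log2 fold change was 0.39 (edgeR adjusted p = 0.478), and without WT replicate 2 it was 1.08 (edgeR adjusted p = 0.378).

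The library with the least Hdac5 was also the one with the least B cell RNA. The 8 B cell markers, such as Cd79a, summed to 35.9, 72.6 and 39.6 CPM in HDAC1-cKO and to 17.6, 49.6 and 40.5 in WT, and all 8 had counts somewhere. Their sums overlapped between genotypes. Cd79b, on average the most abundant of them, did not overlap, as Hdac5 did not, at 18.8, 25.9 and 18.6 CPM in HDAC1-cKO and 10.5, 12.4 and 8.69 in WT (log2 fold change 1.00 ± 0.21, edgeR adjusted p = 0.0592). Their part in the Hdac5 values was not tested.

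**Figure D2:**
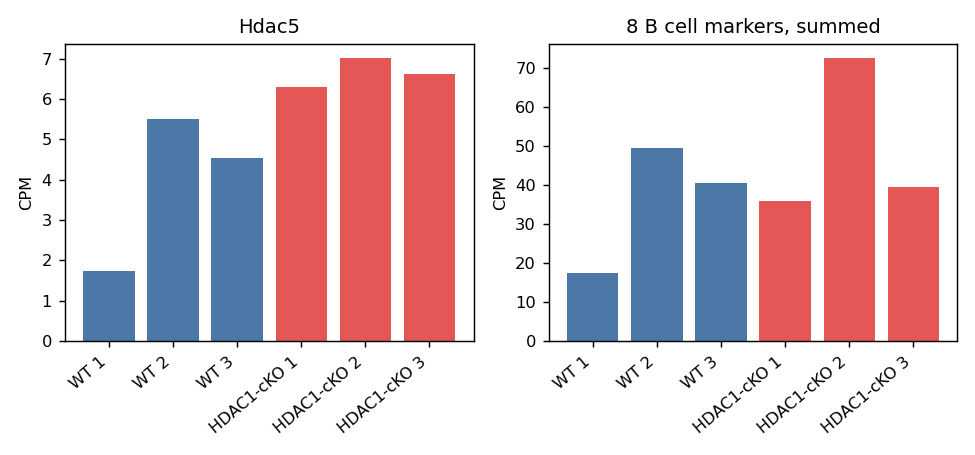
Left, CPM of Hdac5, and right, summed CPM of 8 B cell marker genes, 1 bar per library from 0 (WT blue, HDAC1-cKO red). WT replicate 1 is lowest in both, at 1.74 and 17.6 CPM, and HDAC1-cKO replicate 2 highest in both, at 7.01 and 72.6 CPM. The order in between differed. WT replicates 2 and 3 had sums of 49.6 and 40.5 CPM, above 35.9 and 39.6 in HDAC1-cKO replicates 1 and 3, but less Hdac5.

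Hdac7 (ENSMUSG00000022475, chr15:97792664-97844502, minus strand), the class IIa enzyme of thymocytes, was at 20.3, 19.5 and 16.4 CPM in HDAC1-cKO and at 14.9, 16.2 and 19.7 in WT. The lowest HDAC1-cKO library lay amid the WT values. The log2 fold change was 0.15 ± 0.18 (SE, n = 3 libraries per genotype), with an interval for the fold from 0.838 to 1.47 (edgeR adjusted p = 0.746). Hdac7 shares 29 exon bases with Slc48a1 on the opposite strand, 0.4% of its exon bases.

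Hdac9 (ENSMUSG00000004698, chr12:34047580-34917095, minus strand), a class IIa member known from muscle and regulatory T cells, had 0 counts in all 3 HDAC1-cKO libraries and 1, 0 and 0 in WT. A count of 0 allows up to 3 counts, which is 0.0545 to 0.147 CPM in these libraries, so a lower level of Hdac9 was not detectable at this depth. No fold is given, since both genotypes lay under that limit.

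For class IIb, Hdac6 (ENSMUSG00000031161, chrX:7930120-7947889, minus strand), the tubulin deacetylase, was at 24.4, 29.5 and 25.0 CPM in HDAC1-cKO and at 19.9, 21.5 and 18.3 in WT. The groups did not overlap, and HDAC1-cKO replicate 2 was the highest library. The log2 fold change was 0.40 ± 0.15 (SE, n = 3 libraries per genotype), a fold of 1.32 with an interval from 1.04 to 1.68. Its unadjusted p of 0.0275 ranked 1947 among the 15519 genes, and it was not called (edgeR adjusted p = 0.22). That replicate is the library that stood apart in GC content. The log2 fold change of Hdac6 was 0.30 without it and 0.29 with offsets for GC content, and the exons of Hdac6 are 54.3% GC.

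Hdac10 (ENSMUSG00000062906, chr15:89123307-89128700, minus strand), the polyamine deacetylase, was at 22.4, 31.2 and 27.0 CPM in HDAC1-cKO and at 24.4, 31.0 and 24.8 in WT. Means were 26.9 and 26.8 CPM with SDs of 4.39 and 3.72 (n = 3 each). The log2 fold change was 0.005 ± 0.176 (SE), with an interval for the fold from 0.757 to 1.33 (edgeR adjusted p = 0.993). Its sign was the other one under 10 of 17 alternative settings.

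Hdac11 (ENSMUSG00000034245, chr6:91156665-91174692, plus strand), the class IV gene, had 3, 0 and 0 counts in HDAC1-cKO and 0, 0 and 11 in WT. The 11 counts came from WT replicate 3 alone, and 4 of 6 libraries had none. The HDAC1-cKO mean of 0.0307 CPM lay under the level of 3 counts in each library, the WT mean of 0.0966 CPM rested on 1 library, and no test was made. On the opposite strand the gene Gm44002 covers 15.4% of the exon bases of Hdac11.

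**Figure D3:**
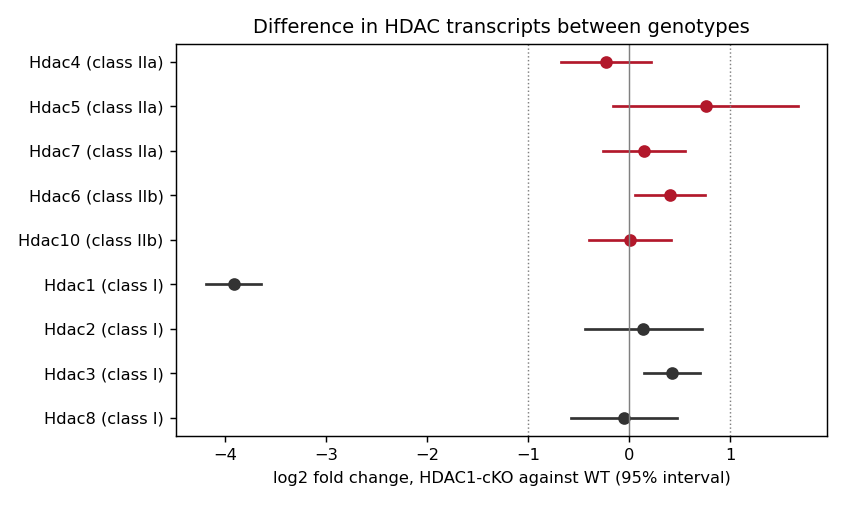
Log2 fold change (HDAC1-cKO against WT) with its 95% interval from edgeR for the 5 class II genes tested (red) and the 4 class I genes (black); dotted lines mark a change of 1 on the log2 scale. The intervals of Hdac4, Hdac7, Hdac6 and Hdac10 lie between the dotted lines, that of Hdac5 crosses the upper one, and Hdac1 lies near -3.91.

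In all, 4 of the 5 intervals, all but that of Hdac5, lay within a change of 1 on the log2 scale in either direction. For comparison, Hdac3, the class I enzyme that works with class IIa proteins, had a log2 fold change of 0.42 ± 0.12 (SE, n = 3 libraries per genotype) that edgeR did not call (adjusted p = 0.118) and that DESeq2 and limma-voom did (adjusted p = 0.0287 and 0.0292). Hdac2, the nearest relative of Hdac1, was at 0.14 ± 0.25 (edgeR adjusted p = 0.84), and Hdac8 at -0.05 ± 0.23 (edgeR adjusted p = 0.94).

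Levels between genes were compared per transcript length with the deposited FPKM, and the order among members was Hdac10, Hdac6, Hdac7, Hdac4, Hdac5, Hdac11 and Hdac9 in both genotypes. In HDAC1-cKO their mean FPKM was 10.6, 6.26, 3.72, 2.64, 1.16, 0.0114 and 0 (n = 3). In WT it was 10.6, 4.75, 3.38, 3.11, 0.691, 0.0362 and 0.000599 (n = 3). Library values of neighbours in this order did not overlap, except those of Hdac7 and Hdac4 in WT and of Hdac11 and Hdac9 in both genotypes. The top member, Hdac10, exceeded 61.1% of protein-coding genes tested in HDAC1-cKO and 60.7% in WT, whereas Hdac5 exceeded 23.0% and 17.2%. With the length of the longest coding transcript in place of the deposited length, the order was the same, and Hdac6 and Hdac7 overlapped too in WT.

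Summed over the 7 genes, class II and IV transcripts came to 22.2, 27.5 and 23.4 FPKM in HDAC1-cKO and 20.1, 25.2 and 22.4 in WT, with means of 24.4 ± 2.76 and 22.5 ± 2.56 (SD, n = 3). The genotypes overlapped in this sum. The class I sum was 84.1 ± 9.61 in HDAC1-cKO and 177 ± 4.11 in WT, and without Hdac1 it was 76.4 ± 9.46 and 61.9 ± 1.20. Class II and IV thus made up 22.6% ± 3.72 of the FPKM of all 11 genes in HDAC1-cKO and 11.3% ± 1.13 in WT (SD, n = 3), a share whose denominator holds the deleted Hdac1. Class IIa made up 7.53 FPKM in HDAC1-cKO and 7.18 in WT, and class IIb 16.8 and 15.3.

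**Figure D4:**
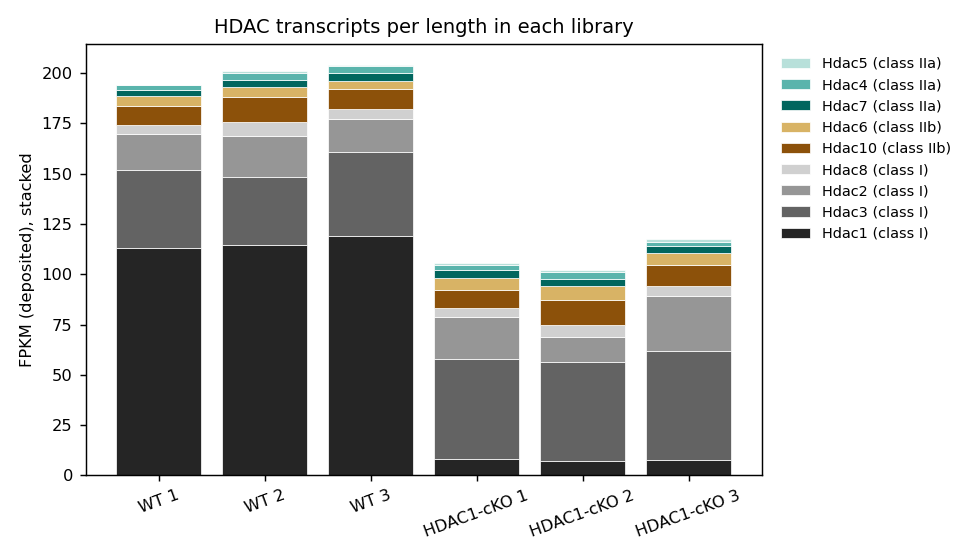
Deposited FPKM of the 9 HDAC genes with reads in all libraries, stacked from 0, 1 bar per library, with class I in grey, class IIb in brown and class IIa in green. The coloured part, class II, has about the same height in all bars (20.1 to 27.5 FPKM with the class IV gene), while the Hdac1 part is 113 FPKM or more in WT and 8.35 or less in HDAC1-cKO.

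The members did not vary alike over the 6 libraries. The within-genotype SD of log2 CPM was smallest for Hdac6 (0.135) and Hdac7 (0.189), followed by Hdac10 (0.217) and Hdac4 (0.252), and was 0.621 for Hdac5. Hdac4, Hdac5, Hdac6 and Hdac10 had their highest HDAC1-cKO value in replicate 2 and Hdac7 in replicate 1. Among the 5 tested members, exon GC content ran from 52.6% in Hdac4 to 60.0% in Hdac5, above that of 66.7% and 97.2% of genes tested.

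For each tested member, the named coding gene with the nearest pattern was found by the root mean square difference of centred log2 CPM over the 6 libraries. For Hdac4 it was Ehmt2 at 0.034, a histone lysine methyltransferase gene, and for Hdac7 it was Slfn8 at 0.038. For Hdac6 it was Dynlt1f at 0.036, which codes for a dynein light chain, and for Hdac10 it was Gbf1 at 0.036. Hdac5 had no near match among 7217 genes, the nearest being Smim24 at 0.258. With 7216 or 7217 genes compared, distances of this size describe these libraries and carry no test.

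Of 82 genes in 8 lists of partners, regulators, substrates and targets, 75 were tested and edgeR called 0 higher and 0 lower. There were 18 of the 75 at an unadjusted p under 0.05, a larger share than the 17.0% of all genes tested. The median log2 fold change was 0.059 beside -0.002 for all genes tested. DESeq2 called 7 higher and 6 lower, and limma-voom with sample weights called 9 higher and 5 lower. As shares these were also above the 9.52% and 10.2% that these tools called of all genes they tested. The lists were chosen with earlier results of these data known, so these shares carry no test. In the list of MEF2 factors and the NCoR/SMRT corepressor, 10 of 10 were tested and 0 called. Mef2d, a MEF2 factor that class IIa enzymes bind, was at 25.5, 34.9 and 24.1 CPM in HDAC1-cKO and 20.9, 32.4 and 27.2 in WT. The lowest p in this list was that of Tbl1x, a subunit of the corepressor, at -0.48 ± 0.12 (edgeR adjusted p = 0.0869), and the next was Hdac3.

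Among 16 kinases that can act on class IIa enzymes, directly or through another kinase of the list, 14 were tested and 0 called. Prkd2, a protein kinase D of T cells, had 38.2, 49.9 and 35.6 CPM in HDAC1-cKO and 57.7, 70.4 and 65.2 in WT, with a log2 fold change of -0.64 ± 0.16 (edgeR adjusted p = 0.0877). Camk1d, a calmodulin-dependent kinase, had -0.51 ± 0.16 (edgeR adjusted p = 0.158). Of the 7 genes for 14-3-3 proteins, which hold class IIa enzymes in the cytoplasm, 7 were tested and 0 called, with Ywhag at 0.22 and Ywhah at -0.12 (edgeR adjusted p = 0.605 and 0.611). Of 6 genes for phosphatases that act on class IIa enzymes, 6 were tested and 0 called. The lowest p there was that of Ppp1r12a, a myosin phosphatase subunit, at 30.5, 23.0 and 29.7 CPM in HDAC1-cKO and 39.1, 49.0 and 50.5 in WT (log2 fold change -0.74 ± 0.17, edgeR adjusted p = 0.0697), and Ppp2r1b had 0.35 ± 0.12 (edgeR adjusted p = 0.17).

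Among 8 genes that MEF2 or HDAC7 control in T cells, 6 were tested and 0 called. Klf2, a transcription factor of quiescent T cells, had -0.66 ± 0.26 and overlapping libraries (edgeR adjusted p = 0.255), and Nr4a2 had 0.44 ± 0.87 (edgeR adjusted p = 0.86).

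Of 16 substrates and partners of HDAC6, 16 were tested and 0 called. The log2 fold change was above 0 for 11 of them, beside 7717 of all 15519 genes tested. Sirt2, another tubulin deacetylase, was at 325, 315 and 314 CPM in HDAC1-cKO and 213, 227 and 251 in WT, so that the groups did not overlap (log2 fold change 0.46 ± 0.10, edgeR adjusted p = 0.0605). Cyld, a deubiquitinase, had -0.45 ± 0.14 (edgeR adjusted p = 0.137).

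Of 16 polyamine genes, the pathway of the HDAC10 substrate, 13 were tested and 0 called. An unadjusted edgeR p under 0.05 was found for 5 of the 13, 4 of them above 0, where 17.0% of all genes tested had one. Log2 fold changes were above 0 for 10 of the 13, beside 7717 of all 15519 genes tested. Their median was 0.32, beside -0.002 for all genes tested. The median of the polyamine genes was 0.18 without WT replicate 2, 0.17 with GC offsets, 0.15 with GC and length offsets and 0.19 without the filter on low counts. Oaz2, an antizyme that controls ornithine decarboxylase, was at 33.1, 35.8 and 39.5 CPM in HDAC1-cKO and 19.4, 27.0 and 23.5 in WT, with a log2 fold change of 0.63 ± 0.17 (edgeR adjusted p = 0.0951). Dhps, which starts the making of hypusine from spermidine, had 0.44 ± 0.11 (edgeR adjusted p = 0.0911). Of the 3 genes for substrates and targets of HDAC11, 3 were tested and 0 called, with Shmt2, a mitochondrial serine hydroxymethyltransferase, at 0.56 ± 0.14 and Cdt1, a DNA replication licensing factor, at 0.36 ± 0.13 (edgeR adjusted p = 0.0858 and 0.216).

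**Figure D5:**
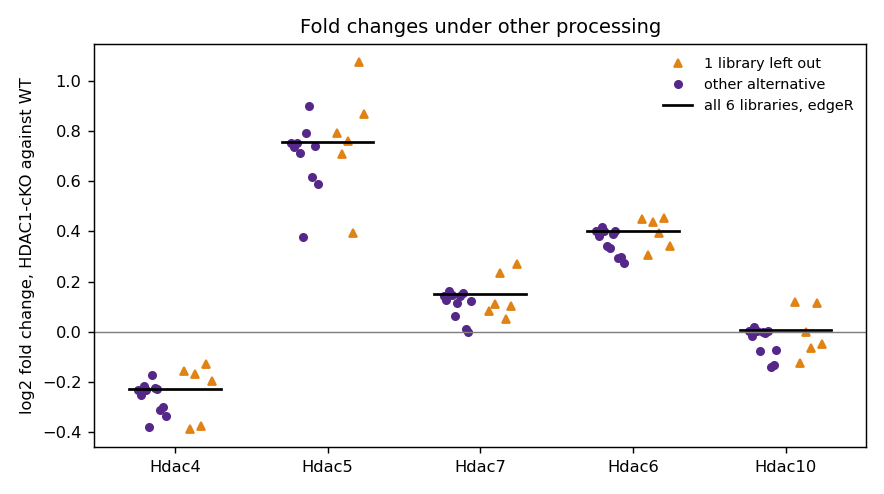
Log2 fold change (HDAC1-cKO against WT) of the 5 tested members with all 6 libraries (line), with 1 library left out (triangles) and under the other alternative settings (circles). Hdac4 stays below 0 and Hdac5 and Hdac6 above 0 in all of these, while Hdac10 lies on both sides, from -0.14 to 0.12.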

How the data were processed

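Polyadenylated RNA of 500 sorted cells per library was sequenced as single reads of 50 bases, per the labels' protocols. The authors deposited whole-number counts per gene, not normalized, and FPKM for the same 55536 genes. Per the submitters' processing notes, the tools included STAR 2.5.2b, Picard 2.19.2, R 3.6.1 and DESeq2 1.24.0, with GRCm38 among the builds. Read counter: not given in the sources used here. FPKM, as deposited, follow from the counts through DESeq2's size factors (10896 genes checked). Coordinates are GENCODE M21 on GRCm38, which 55450 gene identifiers match.

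Counts were filtered by filterByExpr (15519 genes kept; Hdac9 and Hdac11 were not), TMM-scaled and tested two-sided by edgeR 4.0.16 in R 4.3.3 (robust quasi-likelihood F test, genotype as the term, Benjamini-Hochberg over all genes tested); standard errors follow from fold change and p. The smallest library, 19956153 counts, sets the lowest precision, and reads carry no molecular identifiers, so floors cover counting error only. Alternatives were other scaling, filters, DESeq2 1.42.0, limma 3.58.1 on voom weights or log2(FPKM + 1 or 0.1), GC and length offsets, a replicate block, and each library left out. One alternative, the level per longest coding transcript, was chosen after seeing the data.

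Members and lists were chosen with earlier results of these data known. Named were all 7 members, the class I genes, from each list its called members, at most 4, or else the 2 with the lowest p, and for each tested member the 1 named coding gene of at least 10 mean CPM with the nearest pattern. Mef2d was named after its values were seen. RefSeq promoter windows matched 6 of the 7 members by symbol.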

Additional observations from a re-analysis of the deposited data

How the results depend on the processing

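No class II or IV gene was called under any of the 17 alternatives, in which the smallest adjusted p was 0.116 (Hdac6, DESeq2). Of 84 fold changes recomputed, 73 kept their sign. The other 11 were Hdac7 at -0.001 with GC offsets and the replicate block together, and Hdac10 at -0.016 without a low-count filter, -0.079 with limma-voom, -0.003 and -0.004 with limma on log2(FPKM + 1) and log2(FPKM + 0.1), -0.141 with GC offsets, -0.134 with GC offsets and the replicate block, -0.072 with GC and length offsets, -0.126 without HDAC1-cKO replicate 2, -0.067 without WT replicate 1 and -0.050 without WT replicate 3; the cause was not tested. Hdac5 was not tested with at least 10 CPM required in 3 libraries. With 1 library left out, log2 fold changes ranged from -0.39 to -0.13 for Hdac4, 0.39 to 1.08 for Hdac5, 0.05 to 0.27 for Hdac7, 0.30 to 0.45 for Hdac6 and -0.13 to 0.12 for Hdac10.

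Counts over all genes moved more. Beside 152 higher and 154 lower, there were 698 and 665 with DESeq2, 770 and 819 with limma-voom, 229 and 303 with GC offsets, 300 lower with GC and length offsets and 243 lower without a filter; the cause was not tested. With 1 library left out there were 15 to 258 higher and 10 to 368 lower, the most without HDAC1-cKO replicate 2, and at most 26 in either direction without any other library. In the 8 lists, instead of 0 there were 7 higher and 6 lower with DESeq2, 9 and 5 with limma-voom, 2 and 1 with at least 10 CPM, and 1 lower without a filter and with each of the 3 fits with GC offsets. With 1 library left out, 0 to 2 were higher and 0 to 1 lower, 2 and 1 without HDAC1-cKO replicate 2.

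A fit with the replicate number as a block called 34 genes higher and 31 lower, and 71 and 106 together with GC offsets, and it called no member. After the mean of each genotype was subtracted from log2 CPM, same-numbered libraries correlated at 0.204, 0.016 and -0.128 over 8333 genes. In these deviations not every library correlated best with its own number, but with 3 libraries per genotype such correlations cannot exclude a pairing. The deposited names give same-numbered libraries adjacent serial numbers, whose meaning is not stated. Since the labels state no pairing, the block was fitted as an alternative only. Depth limits Hdac9 and Hdac11, which lay at or near the level of 3 counts.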

Other observations

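Around the 7 genes, 30 other genes within 100 kb of a member were tested, and edgeR called 3 of them, all higher in HDAC1-cKO (1.97% of all genes tested were called). They are named after their values were seen. Slc48a1, a heme transporter gene whose exons overlap those of Hdac7 by 29 bases on the opposite strand, was at 69.4, 75.8 and 68.4 CPM in HDAC1-cKO and 43.6, 44.4 and 38.8 in WT (log2 fold change 0.75 ± 0.12 SE, edgeR adjusted p = 0.028), while Hdac7 itself was at 0.15 ± 0.18. Vdr, the vitamin D receptor gene, 9923 bases from Hdac7, was at 4.48, 6.47 and 3.92 CPM in HDAC1-cKO and 0.963 to 1.56 in WT (1.98 ± 0.33, edgeR adjusted p = 0.0312). Plxnb2, a semaphorin receptor gene 26849 bases from Hdac10, was at 5.64, 4.79 and 6.27 CPM in HDAC1-cKO and 0.663, 1.53 and 0.369 in WT (2.68 ± 0.49, edgeR adjusted p = 0.0381). In each of the 3 the HDAC1-cKO libraries were all above the WT libraries, as in 1975 of the 15519 genes tested. The 3 were chosen by their calls, so this adds no separate support to those calls.

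With 1 library left out, those of Slc48a1 and Vdr were lost in 5 of 6 fits (edgeR adjusted p up to 0.128 for each, with only the fit without HDAC1-cKO replicate 2 keeping them), and that of Plxnb2 in 4 of 6 (up to 0.136, kept where replicate 2 of either genotype was the one left out). Their log2 fold changes in these 6 fits were 0.69 to 0.78 for Slc48a1, 1.74 to 2.17 for Vdr and 2.34 to 3.39 for Plxnb2. With limma on log2(FPKM + 1), a scale that understates the change of low genes, those of Vdr and Plxnb2 were 0.71 and 0.70. DESeq2 and limma-voom called all 3. With the replicate block the adjusted p was 0.0722, 0.0813 and 0.0755 for Slc48a1, Vdr and Plxnb2. Within 100 kb of Hdac5, Hdac6 and Hdac11, 8, 8 and 1 genes were tested and 0 called, and near Hdac4 and Hdac9 none was tested. Whether a difference in a neighbour bears on the member next to it was not tested.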
